A study of Mus musculus with 6 samples.

Results

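Described here are 8 genes of extracellular proteolysis in mouse visual cortex: the plasminogen activator genes Plat and Plau, the serpin genes Serpine2 and Serpini1, and the metalloprotease genes Adam10, Adam17, Adamts1 and Adamts4. They were chosen by name as genes whose products act on the extracellular matrix together with matrix metalloproteinase 9 (MMP-9), and each symbol matched 1 Ensembl gene among the 55487 of the deposited count table. The mice came from a B6.CBA/Tar line that carries a mutation, UTRmut, in an untranslated region of Mmp9. The 3 genotypes were UTRmut/UTRmut (called UTRmut, 2 mutant alleles), UTRmut/WT (het, 1 mutant allele) and WT/WT (WT, 0 mutant alleles), each with 1 female library (replicate 1) and 1 male library (replicate 2). Animals were 28 days old, no other treatment is labelled, and total RNA of the dissected cortex was sequenced after a stranded library preparation. The labels name neither the number of animals in a library nor their litters, so the p-values reflect how far these 6 libraries scatter, and that scatter may be partly technical.

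Plasminogen activators cut the inactive precursor plasminogen to plasmin, a broad protease that degrades matrix proteins and can activate the precursors of metalloproteinases, among them that of MMP-9. Plat encodes the tissue-type activator, which neurons release at synapses, and Plau encodes the urokinase type. Serpins stop such enzymes by binding covalently to the active site: Serpine2 encodes protease nexin-1, which blocks thrombin, plasmin and both activators, and Serpini1 encodes neuroserpin, the neuronal inhibitor of the tissue-type activator. ADAM10 and ADAM17 are membrane-bound sheddases that release the outer parts of proteins such as Notch, cadherins, the amyloid precursor and tumour necrosis factor. ADAMTS1 and ADAMTS4 are secreted and cut aggrecan, brevican and versican, the lecticans of the matrix around neurons.

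Both enzyme classes carry a short catalytic motif, and its codons are shown for the 6 protease genes because they group the members as the enzymes are grouped. They were read from the longest annotated coding sequence of each gene (GENCODE M21, GRCm38), 5′ to 3′ on the coding strand. The 2 plasminogen activators are serine proteases, and the capitals mark the codon of the serine that attacks the substrate.
Plat: ggtgacTCGggaggccct
Plau: ggcgatTCTggaggaccg
For the 4 metalloproteases the 30 bases start at the zinc-binding site, and the capitals mark the codons of its first histidine, the catalytic glutamate and its second histidine.
Adam10: CATGAAgttggaCATaactttggatctcca
Adam17: CATGAAttgggaCATaattttggagcagaa
Adamts1: CATGAAttgggcCATgtgtttaacatgccg
Adamts4: CATGAActgggcCATgtcttcaacatgctc
Adamts1 and Adamts4 shared 25 of these 30 bases and Adam10 and Adam17 shared 23, while an Adam gene and an Adamts gene shared 15 to 17. Plat and Plau shared 13 of 18 bases. The Plat motif lies in exon 14 of 14 (chr8:22781948-22781965, plus strand) and the Plau motif in exon 11 of 11 (chr14:20842274-20842291, plus strand). Those of Adam10 (chr9:70754296-70754325, plus strand) and Adam17 (chr12:21336735-21336764, minus strand) lie within exon 9 of 16 and exon 12 of 20. In Adamts1 (chr16:85799194-85799545, minus strand) and Adamts4 (chr1:171253210-171253912, plus strand) an intron between exons 3 and 4 interrupts the same 30 bases. The serpins have no such catalytic site.

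Total counts, the female library before the male as in all pairs of values here, were 10916813 and 11966579 in UTRmut, 9500090 and 10598963 in het and 10061225 and 11622460 in WT. A marker of cortex was present: Slc17a7, the gene of a glutamate transporter of cortical excitatory neurons, stood at 875 to 1005 CPM (counts per 1000000 of a library size scaled with trimmed mean of M-values). Some libraries stood apart on lists of marker genes. The WT female library was low on 24 activity-regulated immediate-early genes, with a median log2 deviation from the mean of the 6 libraries of -0.45, against 0.006 to 0.24 in the other 5. The WT male library held 42.1 CPM of Ttr, a choroid plexus transcript, against 0.19 to 6.44 CPM elsewhere. Meningeal and fibroblast genes, 11 of them tested, had medians of -0.60 in the UTRmut male and -0.49 in the WT female, and of 0.17 to 0.60 in the other 4 libraries. Mmp9 itself was scarce, with 8 and 16 counts in UTRmut, 9 and 9 in het and 4 and 9 in WT, and its log2 fold for UTRmut against WT was 0.86 (SE 0.58).

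The inhibitor Serpini1 was by far the most abundant of the 8 transcripts per length. Levels of different genes are set side by side as CPM per kilobase of merged exons, as mean ± SD over the 6 libraries. Serpini1 had 54.0 ± 2.89, more than 96.0% of the 13340 protein-coding genes tested. Adam10 followed with 17.2 ± 1.23 and Serpine2 with 10.7 ± 0.850. Plat had 7.29 ± 0.679, Adamts4 4.25 ± 0.608 and Adam17 3.28 ± 0.351. Adamts1, at 2.47 ± 0.409, and Plau, at 1.88 ± 0.353, were lowest, with Plau above 24.4% of coding genes. Mmp9, the gene mutated in the line, had 0.239 ± 0.0923 on this scale, below every member in every library. The ranges over the 6 libraries did not touch between Serpini1, Adam10, Serpine2 and Plat, whereas Adamts4 overlapped with Adam17, Adam17 with Adamts1, and Adamts1 with Plau. Part of this order depends on the length used, since the merged exons of Serpine2 and Plat, 8287 and 6241 bases, far exceed their longest coding transcripts of 2210 and 2525 bases. Per kilobase of the longest coding transcript Serpine2 stood at 40.2, Adam10 at 18.4 and Plat at 18.0, and Serpini1 was highest on this scale too, at 96.2.

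**Figure D1:**
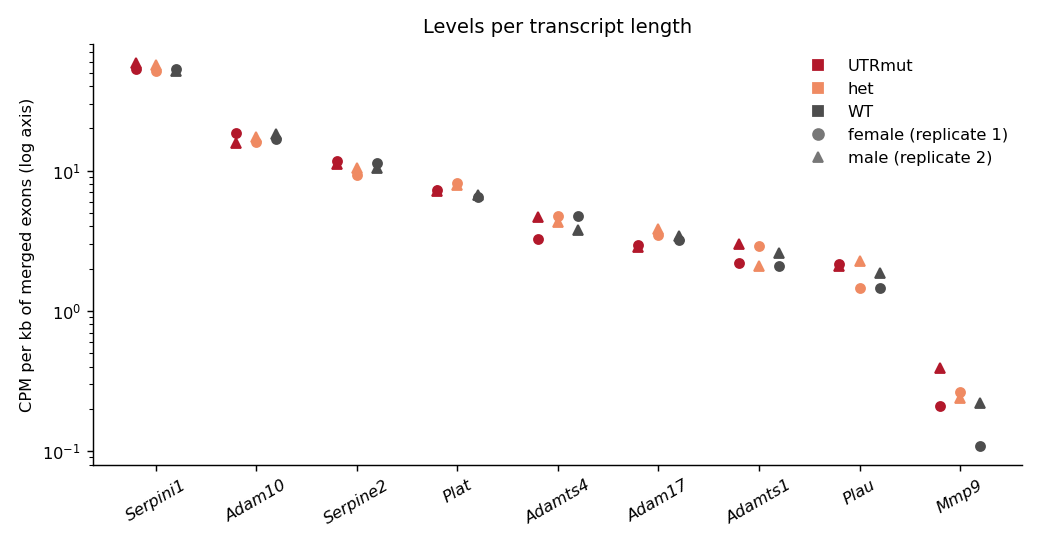
Levels of the 8 genes and Mmp9 as CPM per kilobase of merged exons on a log axis, 1 point per library, coloured by genotype, with circles for females and triangles for males. Serpini1 averaged 54.0 and Plau 1.88, and Mmp9 lay below all 8 genes at 0.239.

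Whether the mutant allele went with a different level of these genes was tested for each gene in 1 fit over all 6 libraries, and none of the 8 passed in any comparison. All 8 had enough counts to enter the test, among 16119 genes in all. At an adjusted p under 0.05 (edgeR's quasi-likelihood test, Benjamini-Hochberg over all genes) 0 of 8 passed in UTRmut against WT, where 0.0062% of all genes did. In het against WT and in UTRmut against het 0 of 8 passed, beside 0.0124% of all genes in each, and for the change per mutant allele 0 of 8 beside 0%. DESeq2 called 0 of 8 in each of these comparisons as well, and so did edgeR with any 1 library left out. At an unadjusted p under 0.05 the edgeR counts were 0 of 8 in UTRmut against WT (2.71% of all genes), 1 of 8 in het against WT (2.37%), 2 of 8 in UTRmut against het (2.8%) and 0 of 8 per allele (3.12%). The 2 libraries of each group did not overlap for 3 of 8 genes in UTRmut against WT (28.6% of all genes), 3 of 8 in het against WT (27.1%) and 3 of 8 in UTRmut against het (34.3%). The median log2 fold of the 8 genes was 0.08 in UTRmut against WT, 0.08 in het against WT and 0.04 in UTRmut against het, beside medians of -0.01, -0.004 and -0.001 over all genes. The median absolute log2 fold was 0.11 for the 8 genes and 0.11 for all genes in UTRmut against WT, and 0.17 for the 8 genes and 0.11 for all genes in UTRmut against het. The log2 change per mutant allele was 0.07 (SE 0.06) for Plat, 0.18 (SE 0.14) for Plau, 0.03 (SE 0.05) for Serpine2, 0.04 (SE 0.04) for Serpini1, -0.02 (SE 0.05) for Adam10, -0.09 (SE 0.07) for Adam17, 0.07 (SE 0.10) for Adamts1 and -0.05 (SE 0.09) for Adamts4. The comparisons share libraries, so a gene's folds are not independent of each other.

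**Figure D2:**
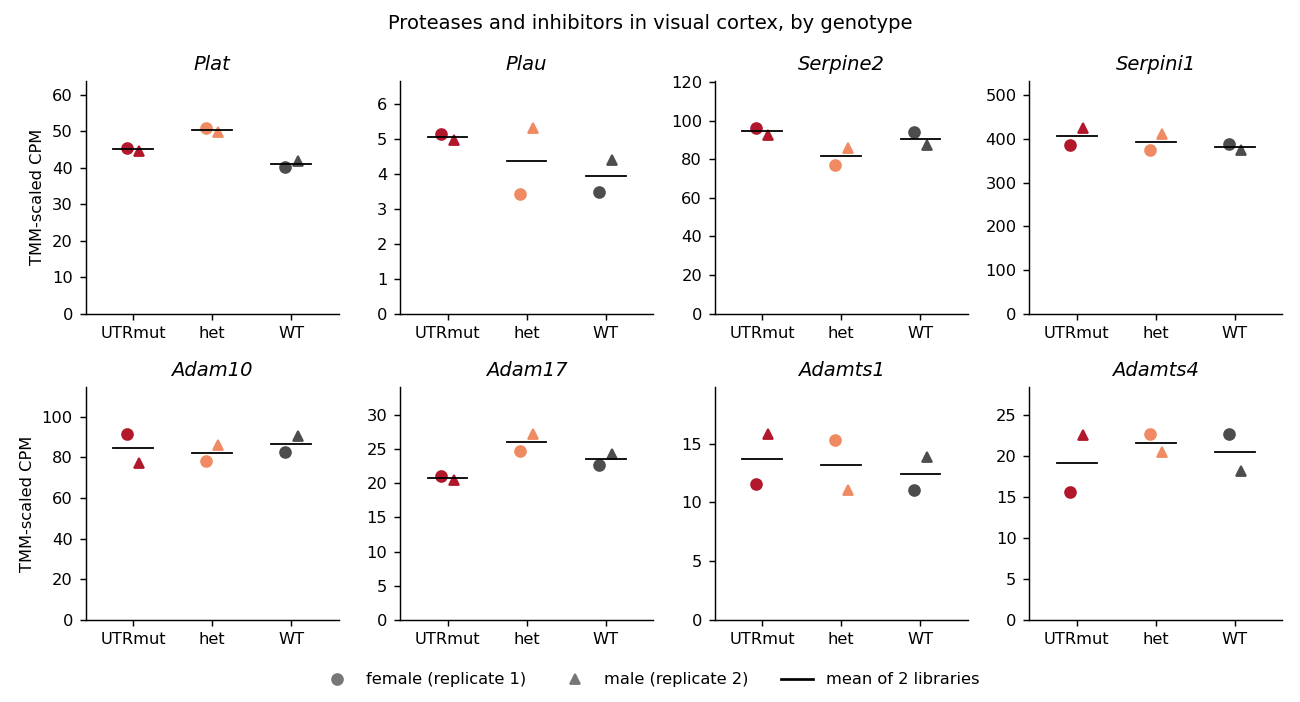
Trimmed-mean-scaled CPM of the 8 genes in each library, with the female as a circle and the male as a triangle, the mean of the 2 libraries as a bar and every axis starting at 0. Plat is highest in the 2 het libraries and lowest in the 2 WT libraries, and Adam17 is highest in het and lowest in UTRmut.

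**Figure D3:**
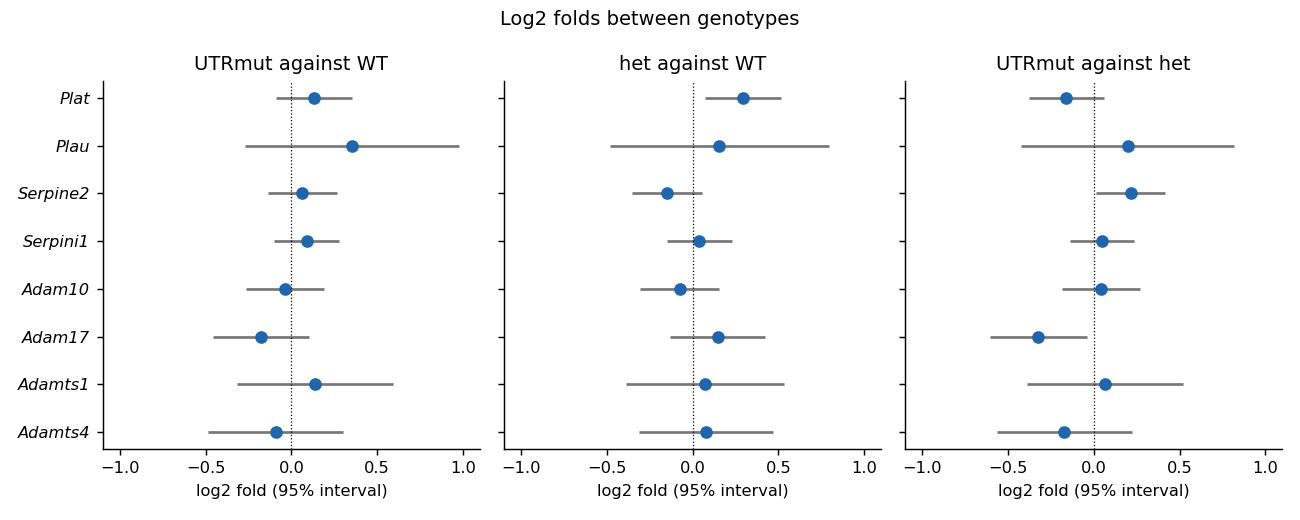
Log2 folds of the 8 genes with 95% intervals in the 3 comparisons between genotypes. The intervals of Plat in het against WT, and of Serpine2 and Adam17 in UTRmut against het, lie off 0, and all others include it.

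Plat (ENSMUSG00000031538), on chromosome 8 from 22757727 to 22782844 of GRCm38 with 14 exons in its longest coding transcript, was highest in het and lowest in WT. It had 45.5 and 44.6 CPM in UTRmut, 51.0 and 49.7 CPM in het, and 40.2 and 41.9 CPM in WT. No genotype overlapped another, and het stood highest in females as in males. The means were 45.0 ± 0.653 CPM in UTRmut, 50.4 ± 0.927 in het and 41.1 ± 1.18 in WT (SD over 2 libraries of each genotype). Its log2 fold was 0.13 (SE 0.10, 95% interval -0.09 to 0.35) for UTRmut against WT. It was 0.29 (SE 0.10, 95% interval 0.07 to 0.51) for het against WT, with an unadjusted p of 0.0126 in edgeR and a Benjamini-Hochberg adjusted p of 0.9998. Within females the het library exceeded WT by 0.34 on the log2 scale and within males by 0.25. The order het, UTRmut, WT is not the order of the allele number. Counts of 417 to 532 per library would give a coefficient of variation of 4.53% from counting alone, and Plat varied by 9.32% over the 6 libraries. Within each genotype the SD over 2 libraries was smaller than counting alone would give, so these SDs understate the error. Plat is also induced by neuronal activity. The list of 24 immediate-early genes had median deviations of 0.12 and 0.24 in UTRmut, 0.03 and 0.03 in het, and -0.45 and 0.006 in WT. Whether activity had a part in the Plat values was not tested.

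Plau (ENSMUSG00000021822), on chromosome 14 from 20836660 to 20843385 with 11 exons, was the scarcest of the 8 genes, and its interval was the widest. Its 33 to 57 counts per library gave 5.14 and 4.96 CPM in UTRmut, 3.44 and 5.32 CPM in het and 3.47 and 4.40 CPM in WT. Both UTRmut libraries lay above both WT libraries, while the het pair spanned the range of all 6. The log2 fold for UTRmut against WT was 0.35 (SE 0.29, 95% interval -0.27 to 0.98), an interval that includes equal levels and reaches a 1.97-fold higher level in UTRmut. In the females UTRmut exceeded WT by 0.54 and in the males by 0.16 on the log2 scale. For het against WT the fold was 0.16 (SE 0.30), with -0.01 in females and 0.26 in males. Plau was the lower activator transcript in every library: the counts of Plat were 8.86 and 8.98 times those of Plau in UTRmut, 14.9 and 9.33 times in het, and 11.6 and 9.51 times in WT.

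Serpine2 (ENSMUSG00000026249), on chromosome 1 from 79794197 to 79861180 on the minus strand, was lowest in het. It had 96.4 and 92.8 CPM in UTRmut, 77.0 and 85.9 CPM in het, and 93.8 and 87.1 CPM in WT. The het libraries lay below all 4 others, by a small margin in the males, and UTRmut and WT overlapped. For UTRmut against het the log2 fold was 0.21 (SE 0.09, 95% interval 0.01 to 0.42), with an unadjusted p of 0.0409 in edgeR and a Benjamini-Hochberg adjusted p of 0.9999. Het against WT gave -0.15 (SE 0.10), made up of -0.28 in females and -0.02 in males, and UTRmut against WT gave 0.06 (SE 0.09). A difference between UTRmut and WT beyond a fold of 0.909 to 1.20 lay outside the 95% interval.

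Serpini1 (ENSMUSG00000027834), on chromosome 3 from 75557547 to 75643495, was the steadiest of the 8. It had 386 and 426 CPM in UTRmut, 374 and 412 CPM in het, and 389 and 375 CPM in WT, and all 3 genotypes overlapped. Its coefficient of variation over the 6 libraries was 5.34%, and the highest library exceeded the lowest 1.14-fold. The log2 folds were 0.09 (SE 0.09) for UTRmut against WT, 0.04 (SE 0.09) for het against WT and 0.05 (SE 0.09) for UTRmut against het. For UTRmut against WT the 95% interval, as a fold, was 0.934 to 1.21. A noncoding gene of the TEC class on the same strand, Gm37672, lies inside the Serpini1 locus without sharing an exon, and had 167 counts over all libraries.

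Set against its inhibitors within each library, Plat was highest in het. The counts of Plat were 0.472 and 0.480 times those of Serpine2 in UTRmut, 0.662 and 0.578 times in het, and 0.429 and 0.481 times in WT. Both het ratios exceeded the other 4, and UTRmut and WT overlapped. Plat alone was already highest in het and Serpine2 alone lowest there, so this ratio is not a separate observation. Against Serpini1, Plat stood at 0.118 and 0.105 in UTRmut, 0.137 and 0.121 in het, and 0.103 and 0.112 in WT. These ratios need no scaling between libraries, and they were not tested. They compare RNA and not the amounts of active enzyme and free inhibitor.

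**Figure D4:**
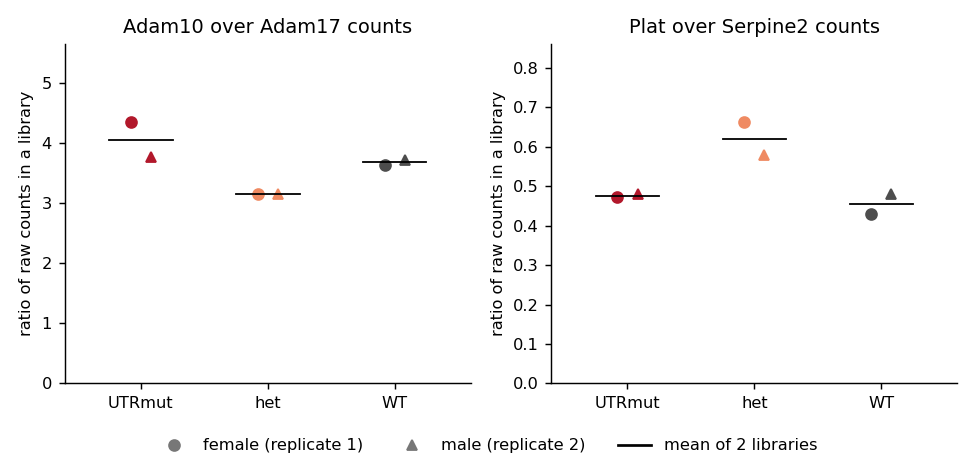
Ratio of raw counts of Adam10 to Adam17 (left) and of Plat to Serpine2 (right) in each library by genotype, with circles for females, triangles for males and a bar for the mean of 2 libraries. The Adam10 to Adam17 ratio is lowest in the 2 het libraries, at 3.16 and 3.15, and the Plat to Serpine2 ratio is highest there.

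Adam17 (ENSMUSG00000052593), on chromosome 12 from 21323509 to 21373632 on the minus strand, was, beside Plat, one of 2 of the 8 genes for which no pair of genotypes overlapped, as was the case for 5.06% of all genes tested. It had 21.1 and 20.5 CPM in UTRmut, 24.8 and 27.3 CPM in het, and 22.8 and 24.3 CPM in WT. UTRmut was lowest and het highest, in females and in males. The log2 fold for UTRmut against het was -0.32 (SE 0.13, 95% interval -0.60 to -0.04), with an unadjusted p of 0.0270 in edgeR and a Benjamini-Hochberg adjusted p of 0.9999. Within females this difference was -0.23 and within males -0.41. UTRmut against WT gave -0.18 (SE 0.13) and het against WT 0.15 (SE 0.13). At its 3′ end Adam17 shares 311 exonic bases with Iah1 on the opposite strand, and reads there cannot be assigned unless the counting used strand. Iah1 had 7.47 and 6.18 CPM in UTRmut, 7.91 and 8.78 in het and 9.16 and 6.91 in WT.

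Adam10 (ENSMUSG00000054693), on chromosome 9 from 70678997 to 70780229, showed overlapping genotypes. It had 91.6 and 77.2 CPM in UTRmut, 78.2 and 85.9 CPM in het, and 82.6 and 90.3 CPM in WT. The highest and the lowest of all 6 values were the 2 UTRmut libraries. The log2 folds were -0.04 (SE 0.11) for UTRmut against WT, -0.08 (SE 0.11) for het against WT and 0.04 (SE 0.11) for UTRmut against het. Set against the other sheddase, Adam10 was lowest in het: its counts were 4.34 and 3.76 times those of Adam17 in UTRmut, 3.16 and 3.15 times in het, and 3.63 and 3.72 times in WT. No genotype overlapped another on this ratio, as was already so for Adam17 alone, while Adam10 alone overlapped. Adam10 and Adam17 share several substrates, and the ratio is one of transcripts only.

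Adamts1 (ENSMUSG00000022893), on chromosome 16 from 85793827 to 85803113 on the minus strand, varied more between the 2 libraries of a genotype than between genotypes. It had 11.6 and 15.8 CPM in UTRmut, 15.3 and 11.0 CPM in het, and 11.1 and 13.8 CPM in WT. The log2 folds were 0.14 (SE 0.21) for UTRmut against WT, 0.07 (SE 0.21) for het against WT and 0.07 (SE 0.21) for UTRmut against het. Adamts1 is expressed by vessel cells as well as by activated neurons. The list of 18 endothelial and mural markers had medians of 0.09 and -0.18 in UTRmut, 0.02 and 0.05 in het, and -0.03 and 0.15 in WT, so the library with the highest Adamts1, the UTRmut male, was the lowest on that list and the highest on the immediate-early list. The summed level of the vessel list ran from 166 to 211 CPM in UTRmut, 195 to 207 in het and 182 to 213 in WT, with no marker at 0 in all libraries. Their part in the Adamts1 values was not tested. In tissue RNA, fewer cells of a type cannot be told apart from less RNA per cell.

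Adamts4 (ENSMUSG00000006403), on chromosome 1 from 171250421 to 171260637, is made in the brain largely by oligodendrocytes, and of the 8 genes it had the largest sex difference in the change per allele. It had 15.7 and 22.6 CPM in UTRmut, 22.7 and 20.6 CPM in het, and 22.8 and 18.2 CPM in WT, with the female first in each pair. The UTRmut female was lowest of all 6, while the UTRmut male stood above the other 2 males. Pooled over the sexes the log2 folds were -0.09 (SE 0.18) for UTRmut against WT, 0.08 (SE 0.18) for het against WT and -0.17 (SE 0.18) for UTRmut against het. UTRmut minus WT was -0.53 within females and 0.31 within males. The female minus male difference in the change per allele was -0.42 on the log2 scale (SE 0.13, 95% interval -0.68 to -0.15), with an unadjusted p of 0.00383 in edgeR and a Benjamini-Hochberg adjusted p of 0.121, and did not pass. The UTRmut female library was also lowest on 14 oligodendrocyte markers, whose median deviation was -0.19 and 0.09 in UTRmut, -0.003 and 0.04 in het, and 0.04 and 0.07 in WT, and their summed level ran from 3272 to 4256 CPM in UTRmut, 3928 to 4010 in het and 4049 to 4079 in WT, with no marker at 0 in all libraries. Their part in the Adamts4 values was not tested.

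**Figure D5:**
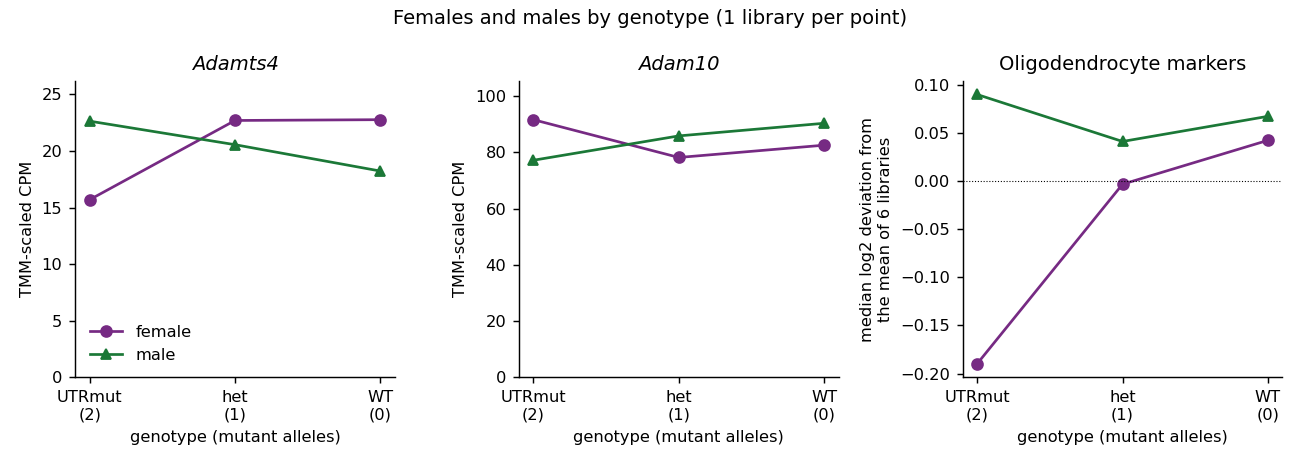
Adamts4 and Adam10 in trimmed-mean-scaled CPM, and the median log2 deviation of 14 oligodendrocyte markers, by genotype and with a line for each sex; every point is 1 library. The UTRmut female is lowest for Adamts4, at 15.7 CPM, and on the marker list, at -0.19, and is highest for Adam10, at 91.6 CPM.

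None of the 8 genes passed a test of sex. All female libraries were replicate 1 and all male libraries replicate 2. Sex therefore cannot be told apart from anything else that libraries of the same replicate number shared. When females were set against males in a model that held genotype, 0 of 8 passed in edgeR (0.0372% of all genes did) and in DESeq2, and 0 of 8 had an unadjusted p under 0.05 (6.99% of all genes). The log2 folds were 0.003 (SE 0.08) for Plat, -0.29 (SE 0.22) for Plau, 0.003 (SE 0.08) for Serpine2 and -0.08 (SE 0.07) for Serpini1. For the metalloproteases they were -0.005 (SE 0.09) for Adam10, -0.07 (SE 0.10) for Adam17, -0.10 (SE 0.18) for Adamts1 and -0.02 (SE 0.16) for Adamts4. In the test of the sex difference in the change per allele, 0 of 8 passed in edgeR (1.2% of all genes), DESeq2 called none of the 4 to which it gave an adjusted p, and 2 of 8 had in edgeR an unadjusted p under 0.05 (13.6% of all genes). Besides Adamts4 the second was Adam10, with a difference of 0.19 (SE 0.08) and a Benjamini-Hochberg adjusted p of 0.285 in edgeR: UTRmut minus WT was 0.15 in females and -0.23 in males. The other differences were 0.04 (SE 0.12) for Plat, 0.21 (SE 0.25) for Plau, -0.03 (SE 0.10) for Serpine2, -0.10 (SE 0.06) for Serpini1, 0.06 (SE 0.13) for Adam17 and -0.07 (SE 0.19) for Adamts1. Among the related genes 2 passed this test in edgeR with Benjamini-Hochberg adjustment. They were the receptor gene Notch1, a substrate of ADAM10, with 0.48 (SE 0.11, adjusted p = 0.0466), and Adamts16 with -0.94 (SE 0.21, adjusted p = 0.0362). Notch1 was 1 of 33 tested genes with shed products and Adamts16 1 of 30 tested ADAMTS and matrix genes. Each genotype and sex is 1 library in this test, so its error rests on how far the libraries depart from a straight line over the allele number.

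Of the wider plasminogen system, the substrate, the plasmin inhibitor and the urokinase receptor had few or no reads. Plg, the gene of plasminogen, had 0 to 4 counts per library and Serpinf2, the gene of the plasmin inhibitor antiplasmin, 0 or 1. Plaur, the gene of the urokinase receptor, had 0 to 7 counts. At these depths no difference between genotypes was detectable. A count of 0 allowed up to 0.259 to 0.312 CPM, the value of 3 counts, which covers counting error only. Lrp1, the receptor that clears activator and serpin complexes, was abundant, with 785 and 669 CPM in UTRmut, 748 and 678 in het and 697 and 814 in WT, all overlapping. Of 32 related genes of the system 18 were tested and 0 passed in either direction in any of the 3 genotype comparisons (edgeR, Benjamini-Hochberg). At an unadjusted p under 0.05 the counts were 0 in UTRmut against WT, with a median log2 fold of 0.04, 2 in het against WT, with a median of 0.10, and 2 in UTRmut against het, with a median of -0.07. These medians moved with single libraries. That of UTRmut against WT was -0.10 without the WT female and 0.21 without the WT male, that of het against WT was -0.005 without the WT female and 0.23 without the WT male, and that of UTRmut against het was -0.18 without the UTRmut male. Thbd, the gene of the thrombin receptor thrombomodulin, had 0.75 (SE 0.26) in het against WT and -0.82 (SE 0.26) in UTRmut against het. In UTRmut against het Thbd passed only without a filter on low counts (edgeR, Benjamini-Hochberg adjusted p = 0.02115), and in no other setting. Its adjusted p was 0.9999 in the main edgeR fit and in DESeq2. In edgeR it was 0.9995 with sex as replicate block and 0.842 with only these 2 genotypes. The collagen chaperone gene Serpinh1 had 0.47 (SE 0.16) and -0.38 (SE 0.15), and Serping1, the gene of the complement C1 inhibitor, had 0.70 (SE 0.35) in het against WT. The meningeal and fibroblast markers had the same signs in these 2 comparisons. In het against WT 9 of 11 were positive (median 0.48), beside 48.9% of all genes. In UTRmut against het 10 of 11 were negative (median -0.45), beside 50.3% of all genes. In UTRmut against WT 7 of the 11 markers were negative (median -0.095), beside 52.1% of all genes. Their summed level was 341 to 620 CPM in UTRmut, 555 to 784 in het and 374 to 473 in WT, no marker was at 0 in all libraries, and their part in these values was not tested. In UTRmut against WT the smallest unadjusted p belonged to the plasminogen receptor genes Plgrkt (-0.23, SE 0.17), Eno1 (0.13, SE 0.10) and S100a10 (0.23, SE 0.20), and Plgrkt had -0.34 (SE 0.17) in UTRmut against het.

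Partners of the sheddases gave no call either. Of 26 other ADAM genes and regulators 23 were tested, and 0 passed (edgeR, Benjamini-Hochberg; 0, 1 and 3 at an unadjusted p under 0.05 in the same order of comparisons), with median log2 folds of -0.06, -0.001 and -0.003. Adam12 had 0.60 (SE 0.27) in het against WT and -1.01 (SE 0.27) in UTRmut against het, so its fitted mean was highest in het. Frmd8, whose product holds the ADAM17 carrier iRhom at the cell surface, had 0.32 (SE 0.16) and -0.53 (SE 0.16) in these 2 comparisons. Adam8 had -0.74 (SE 0.42) in UTRmut against WT and -1.20 (SE 0.41) in UTRmut against het, and Adam33 had -1.08 (SE 0.51) and Rhbdf1, the gene of iRhom1, 0.32 (SE 0.19) in UTRmut against WT. Adam23, a neuronal member without protease activity, had -0.19 (SE 0.09) in het against WT. Of 36 genes whose products are shed by ADAM10 or ADAM17 33 were tested, 0 passed, and the medians were -0.02, -0.03 and 0.02 (0, 1 and 2 genes at an unadjusted p under 0.05). In het against WT the adhesion genes L1cam and Nlgn3 had -0.20 (SE 0.09) and -0.20 (SE 0.10) and the Notch ligand gene Jag1 had 0.46 (SE 0.28). In UTRmut against het Notch2 had -0.37 (SE 0.14), Jag1 -0.65 (SE 0.29) and Kl, the gene of klotho, -0.75 (SE 0.42). In UTRmut against WT Kl had -0.80 (SE 0.42), Nrg1 -0.22 (SE 0.14) and Efna5 -0.23 (SE 0.16). Kl is also a choroid plexus transcript, and the WT male library held the most Ttr; the part of choroid plexus in the Kl values was not tested.

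Of 33 other ADAMTS genes, lecticans and linked matrix genes 30 were tested. In UTRmut against WT 21 were negative (median -0.11, beside 52.1% of all genes negative), in het against WT 16 (-0.02, beside 51.1%) and in UTRmut against het 22 (-0.10, beside 50.3%). In both comparisons of UTRmut 15 of the 30 were negative, beside 35.8% of all genes, and 0 passed (edgeR, Benjamini-Hochberg; 1 gene in each at an unadjusted p under 0.05). In UTRmut against WT Adamts20 had -0.40 (SE 0.15), Adamts17 -0.42 (SE 0.21) and Adamts2, a procollagen protease, -0.47 (SE 0.23). Adamtsl3 had 0.57 (SE 0.27) in het against WT and -0.77 (SE 0.27) in UTRmut against het, and Thbs1, an inhibitor of vessel growth, and Bcan, the core protein of brevican, had 0.48 (SE 0.30) and 0.16 (SE 0.10) in het against WT. Adamtsl1 and Adamts20 had -0.56 (SE 0.29) and -0.28 (SE 0.15) in UTRmut against het. The median deviation of this list was 0.02 in the UTRmut female and -0.11 in the UTRmut male, the library that was also lowest on the vessel and meningeal markers. The median for UTRmut against WT was 0.0015 without the UTRmut male and -0.0055 without the WT male, and the part of those cells in it was not tested. Of 20 substrates of plasmin and the tissue-type activator 18 were tested and 0 passed, with medians of -0.08, -0.02 and -0.06 (0, 1 and 1 at an unadjusted p under 0.05). Mmp14, a membrane-bound metalloproteinase that activates other MMPs, had 0.26 (SE 0.22) in UTRmut against WT, 0.85 (SE 0.22) in het against WT and -0.59 (SE 0.21) in UTRmut against het. The laminin gene Lama1 had 0.67 (SE 0.31) in het against WT and -0.52 (SE 0.31) in UTRmut against het, Mmp2 had -0.83 (SE 0.41) in UTRmut against het, Grin2b, an NMDA receptor subunit gene, had -0.11 (SE 0.08) in het against WT, and Tnr, the gene of tenascin-R, had -0.17 (SE 0.09) in UTRmut against WT. In het against WT the signs of Mmp14 and Lama1 were those of the meningeal and fibroblast markers (median 0.48). So were the signs of Mmp14, Lama1 and Mmp2 in UTRmut against het (median -0.45). In UTRmut against WT the signs differed, with Mmp14 positive and 7 of the 11 markers negative (median -0.095). The part of meningeal cells in these values was not tested. Of the vessel list, the mural genes Vtn and Tagln had 0.61 (SE 0.17) and 0.995 (SE 0.42) in het against WT. Slco1a4 of the same list had -0.32 (SE 0.15) there. Of all 18 genes 11 were positive and 7 negative (median 0.04), and the part of vessel cells was not tested.

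Each of the 8 genes had many genes of like pattern, as 6 libraries allow. Among 9391 or 9392 other coding genes with a mean of at least 10 CPM, those with the highest Pearson r of log2 CPM over the 6 libraries are named as a description, since all points share the same libraries and their depth. For Plat they were Sema3d and Mgll (r = 0.988 and 0.966), and 27 genes exceeded 0.9. For Plau, which had the most genes above 0.9 (230), they were Syt4 and Psmd13 (0.995 and 0.99). Serpine2 was closest to Tfe3 and Nop58 (0.984 and 0.983) and Serpini1 to Otulin and Coq8a (0.994 and 0.993). Adam10 was closest to Polr3d and Znrf3 (0.988 and 0.985) and Adam17 to Rit1 and Isyna1 (0.991 and 0.989). Adamts1 was closest to Tbc1d10a and Atpaf2 (0.986 and 0.974) and Adamts4 to Gpr107 and Zfp622 (0.981 and 0.98). No member was among the 2 genes closest to another member.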

How the data were processed

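The authors deposited raw read counts per Ensembl gene for 6 libraries, not normalised and not pooled. The tools named, per the submitters' processing notes, were HTSeq 0.6.0, HISAT2, Trimmomatic 0.39 and GATK 4.2.3.0, with the build GRCm38 and no role or order. Neither strand setting nor annotation release is given in the sources used here, so reads of overlapping antisense genes may be shared. Total RNA libraries also hold unspliced RNA. Symbols, lengths and positions came from GENCODE M21 (GRCm38), and 55227 of 55487 identifiers matched.

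Genes were kept with filterByExpr by genotype (minimum count 10, minimum total 15; 16119 genes), scaled by trimmed mean of M-values and tested with edgeR 4.0.16 (R 4.3.3; robust quasi-likelihood F test, Benjamini-Hochberg over all genes, threshold 0.05), checked on simulated data. Genotype was a factor, the number of mutant alleles a number, and all 6 libraries shared 1 spread. Standard errors are the absolute log2 fold over the square root of F, and 95% intervals use the moderated degrees of freedom. Within-sex differences and list deviations are in log2 CPM (prior count 2). Alternatives were DESeq2 1.42.0, other scalings, no filter, the replicate block, fits on 2 genotypes and leaving out each library. The 8 genes, the lists and the tests were chosen with earlier results of these data known. Every comparison names the 8 genes, and the comparisons between genotypes also name the 3 genes with the smallest p of each list of related genes. The marker and activity lists fall under the same naming rule. For them library medians are given in place of genes, except for Vtn, Tagln and Slco1a4.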

Additional observations from a re-analysis of the deposited data

Results flagged for a closer look

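Among the genes related to the 8, a pair was set apart because females and males differed in the change per mutant allele (edgeR's quasi-likelihood test, Benjamini-Hochberg over 16119 genes, of which 1.2% passed). They were 1 of 33 tested shed substrates and 1 of 30 tested ADAMTS and matrix genes. On the plasminogen, ADAM and plasmin substrate lists (18, 23 and 18 tested) 0 passed. Calls were not particular to genes of proteolysis: of 24 immediate-early genes 4 passed higher and 1 lower. Of 11 meningeal and fibroblast markers 1 passed, and 11 were positive (median 0.67), beside 48.9% of all genes positive. Of the vessel markers 1 of 18 passed, of the astrocyte markers 1 of 12 and of the red blood cell markers 2 of 4. For oligodendrocytes, their precursors and microglia 0 passed (14, 8 and 12 tested). For excitatory neurons, interneurons and choroid plexus 0 passed as well (12, 10 and 3 tested). Notch1, whose product ADAM10 cuts, had a difference of 0.4802 on the log2 scale (SE 0.11, adjusted p = 0.0466). It stood at 26.5 CPM in the female and 17.8 in the male of UTRmut, 20.8 and 22.0 in het, and 19.6 and 25.6 in WT. Adamts16, a secreted metalloprotease gene, had -0.9354 (SE 0.21, adjusted p = 0.0362), with 3.83 and 6.27 CPM in UTRmut, 6.14 and 5.33 in het, and 10.2 and 4.58 in WT. Both calls were lost when either UTRmut or either WT library was left out, with Benjamini-Hochberg adjusted p in edgeR of 0.268 to 0.666 for Notch1 and 0.225 to 0.551 for Adamts16. The differences themselves ran from 0.3486 to 0.6087 for Notch1 and from -0.9584 to -0.9047 for Adamts16 with 1 library left out, in fits with fewer libraries. Notch1 was also lost with upper quartile scaling, at an adjusted p of 0.0523 in edgeR. DESeq2 gave neither gene an adjusted p.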

How the results depend on the processing

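None of the 544 recomputed folds of the 8 genes passed in edgeR or DESeq2 (lowest Benjamini-Hochberg adjusted p 0.0549, for Adamts4 in the sex difference per allele without the het male), and 55 had the opposite sign. DESeq2 gave no adjusted p to Plau, Adam17, Adamts1 and Adamts4 in that comparison. Counts of all genes called depended on the setting. UTRmut against WT had 1 call, but 27 without a filter, 8 in DESeq2, 3 with only these genotypes and 2 to 124 with a library left out (124 without the WT male). Het against WT had 2, but 13 without a filter, 1 with only these genotypes and 1 to 41 with a library left out (41 without the WT male). UTRmut against het had 2, but 28 without a filter, 7 in DESeq2, 10 with only these genotypes and 0 to 12 with a library left out. The change per allele had 0 against 19, 4 in DESeq2 and 0 to 45. Females against males had 6 against 92, 10 in DESeq2 and 7 to 198. The sex difference per allele had 194 against 600, 77 in DESeq2 and 16 to 733. With sex as replicate block 4 genes passed in UTRmut against WT and 5 in UTRmut against het, and none of the 8 did. Libraries of the same sex deviated together with r = 0.196 (UTRmut and het), 0.0802 (UTRmut and WT) and 0.295 (het and WT). The replicate numbers coincide with sex and were not taken as pairs in the main fit. The cause of these shifts was not tested.

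Per kilobase of the longest transcript Plat had 11.25 CPM, Serpine2 26.19, Serpini1 96.18 and Adam17 5.248, and per longest coding transcript 18.01, 40.2, 96.18 and 5.248. In females against males the sign turned for Plat (-0.00929) and Serpine2 (-0.009593) without a filter, for Serpine2 in DESeq2 (-0.000352) and for Adam10 with upper quartile scaling (0.01093).

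Leaving out 1 library moved 44 of the 48 folds of the 8 genes and 33 of 49 folds of related genes by over 1.5 times at least once. Without a turn of sign, in UTRmut against WT, Kl ran from -1.355 to -0.2113, Adamts2 from -0.9094 to -0.121, Nrg1 from -0.3818 to -0.02 and Mmp9 from 0.3389 to 1.466, and in UTRmut against het Lama1 ran from -1.032 to -0.1253. Log2 folds whose sign turned had these ranges. In UTRmut against WT, Adam10 ran from -0.1603 to 0.08569, Adamts1 from -0.105 to 0.3471, Adamts4 from -0.3802 to 0.1488, Eno1 from -0.01867 to 0.3052 and S100a10 from -0.01642 to 0.4451. In het against WT, Plau ran from -0.2006 to 0.4317, Serpini1 from -0.03211 to 0.1095, Adamts1 from -0.1771 to 0.2941 and Adamts4 from -0.07105 to 0.2441. In UTRmut against het, Plau ran from -0.07628 to 0.5564, Serpini1 from -0.02267 to 0.1233, Adam10 from -0.08552 to 0.1604, Adamts1 from -0.1797 to 0.3174, Adamts4 from -0.4602 to 0.06891 and Mmp9 from -0.2431 to 0.6459. Per allele, Serpine2 ran from -0.002473 to 0.08045, Adam10 from -0.07942 to 0.02681, Adamts1 from -0.03342 to 0.1615 and Adamts4 from -0.1444 to 0.07535. In females against males, Plat ran from -0.01654 to 0.03247, Serpine2 from -0.05107 to 0.07846, Adam10 from -0.1359 to 0.05789, Adamts1 from -0.3875 to 0.0723 and Adamts4 from -0.1907 to 0.2287. In the sex difference per allele, Plat ran from -0.2079 to 0.3006, Plau from -0.09746 to 0.4963, Serpine2 from -0.3281 to 0.2795, Adam17 from -0.2196 to 0.3596 and Adamts1 from -0.5024 to 0.3635.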
